A study of Mus musculus with 20 samples.

Results

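MAP kinase phosphatases are enzymes that remove phosphate from MAP kinases, and 9 of their genes were followed here: Dusp1, Dusp4, Dusp5, Dusp6, Dusp7, Dusp8, Dusp10, Dusp14 and Dusp16. They were taken by symbol from a table of raw read counts that names 23127 genes. The libraries came from AgRP neurons, cells of the hypothalamus named for agouti-related peptide, which promote food intake when energy is short. All 20 libraries came from C57BL/6 mice aged 25 to 30 days that carried AgRP-Cre/+ and the Ai9/+ reporter allele, and 1000 tdTomato-positive neurons were sorted for each sample. There were 5 libraries in each of 4 groups: fasted Phf6 conditional knockout (cKO), fasted wild type (WT), fed cKO and fed WT. The cKO mice were Phf6 flox/y, and the WT mice were littermates for which the labels list only the Cre and reporter alleles. Fasted mice had water but no food from 5 pm of the day before collection, and the other mice are given as fed. Phf6 encodes an X-linked chromatin-binding protein, and its loss reached only cells in which the Agrp promoter had driven Cre. The comparisons ask what an overnight fast does to the RNA of these neurons, with and without Phf6.

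ERK, JNK and p38 are the MAP kinases that carry signals from receptors, synaptic activity and stress to the nucleus, and they work only while phosphorylated on a threonine and a tyrosine of the activation loop. Dual-specificity phosphatases remove both phosphates. Several of their genes are themselves transcribed in response to ERK or to calcium and cyclic AMP, so that the phosphatase acts as negative feedback. Dusp1, Dusp4 and Dusp5 encode nuclear enzymes that are known as inducible early-response genes. Dusp6 and Dusp7 encode cytoplasmic enzymes that prefer ERK. Dusp8, Dusp10 and Dusp16 encode enzymes that prefer JNK and p38. Dusp14 encodes a small enzyme that lacks the kinase-binding domain of the others. The counts measure the transcripts of these genes and not the enzymes or the phosphorylation of their targets.

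The libraries held 8542250 to 9282818 counts in fasted cKO, 8494499 to 10000278 in fasted WT, 10604977 to 13573524 in fed cKO and 11500753 to 13060922 in fed WT. Levels are CPM, counts relative to the library total scaled by the trimmed mean of M values, and a count of 0 allows up to 0.207 to 0.387 CPM depending on the library. Phf6 itself averaged 61.2 ± 6.9 CPM in fasted cKO, 128 ± 11 CPM in fasted WT, 70.7 ± 4.85 CPM in fed cKO and 276 ± 10.2 CPM in fed WT (SD, n = 5 each), and the genotypes did not overlap. A list of 8 AgRP neuron markers summed to 50400 to 84600 CPM in fasted libraries and to 20200 to 30900 CPM in fed ones. Nearly all of that was Npy and Agrp, with means of 54000 and 14900 CPM in fasted WT and 16700 and 4550 CPM in fed WT. Ghsr, Lepr, Acvr1c and Corin were also called higher with fasting in both genotypes. Slc32a1 was called lower in both, with 5.77, 6.52, 8.13 and 10.2 CPM in fasted cKO, fasted WT, fed cKO and fed WT. Otp was called in neither. A list of 8 astrocyte markers summed to 42.4 to 97.1 CPM in fasted cKO, 34.3 to 64.2 CPM in fasted WT, 30.1 to 61.4 CPM in fed cKO and 9.92 to 17.0 CPM in fed WT. Most of that sum was Agt, the gene of angiotensinogen, with means of 53.7, 35.9, 35.2 and 5.22 CPM in the same order. The other 7 astrocyte genes together summed to 5.79 to 14.6 CPM in fasted cKO, 5.97 to 23.7 CPM in fasted WT, 4.45 to 7.7 CPM in fed cKO and 5.54 to 13.5 CPM in fed WT, and Aqp4 was at 0 in every fed cKO library. The 22 markers of microglia, vessels, fibroblasts and oligodendrocyte precursors together summed to at most 16.6 CPM in any library, and 6 markers of tanycytes and ependyma to at most 18.1 CPM. A list of 6 oligodendrocyte markers summed to 49.4 to 65.5 CPM in fasted cKO, 49.1 to 73.5 CPM in fasted WT, 82.6 to 102 CPM in fed cKO and 90.5 to 103 CPM in fed WT, so that the fasted libraries lay below the fed ones without overlap. Most of that sum was Mbp, with means of 32.0, 28.8, 37.2 and 38.9 CPM, and Cnp, with 15.4, 14.9, 30.3 and 37.8 CPM. Mag averaged 11.3, 13.2, 14.3 and 15.0 CPM in the same order. Mog and Mobp averaged at most 0.629 and 1.22 CPM in any group. The 3 markers of Pomc neurons, which lie beside AgRP neurons, summed to 440 to 1100 CPM in fasted cKO, 379 to 470 CPM in fasted WT, 313 to 417 CPM in fed cKO and 324 to 432 CPM in fed WT, with Prdm12 at 0 in every fasted WT library. The part of these other cells in the results was not tested. Within the fasted groups, replicates 1 and 2 stood apart from replicates 3 to 5, as for Agrp with 17500 to 17800 CPM in replicates 1 and 2 and 13000 to 13200 CPM in replicates 3 to 5 of fasted WT. In bulk libraries, more cells of a type and more RNA per cell cannot be told apart.

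The stretches just upstream of 4 members are shown because these genes gave the clearest changes or hold response elements known from other work. They come from RefSeq on GRCm38.p6, run 5′ to 3′ on the gene's strand, and leave out bases that GENCODE M21 places in an exon of the gene. Capitals mark cyclic AMP response elements (the full site TGACGTCA or the shorter TGACG, either strand) and, in Dusp5, the neighbouring CArG boxes that serum response factor binds. The Dusp1 stretch is chr17:26508520-26508722 on the minus strand, that of Dusp5 is chr19:53528895-53529108 on the plus strand, that of Dusp8 is chr7:142095285-142095534 on the minus strand and that of Dusp10 is chr1:184034131-184034380 on the plus strand. The stretches of Dusp1, Dusp8 and Dusp10 lie within the spans that GENCODE M21 gives these genes, upstream of a RefSeq start and not of the whole span. For Dusp8, the bases that follow the stretch at the RefSeq start were not found in the gene's GENCODE transcripts.
Dusp1: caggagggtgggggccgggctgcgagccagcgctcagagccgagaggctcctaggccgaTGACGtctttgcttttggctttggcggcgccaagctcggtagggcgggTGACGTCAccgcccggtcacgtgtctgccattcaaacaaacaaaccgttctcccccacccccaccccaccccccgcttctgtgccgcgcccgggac
Dusp5: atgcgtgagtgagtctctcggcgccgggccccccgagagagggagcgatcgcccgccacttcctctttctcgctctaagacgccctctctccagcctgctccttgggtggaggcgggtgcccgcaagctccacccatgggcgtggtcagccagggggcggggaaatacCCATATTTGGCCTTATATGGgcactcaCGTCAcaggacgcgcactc
Dusp8: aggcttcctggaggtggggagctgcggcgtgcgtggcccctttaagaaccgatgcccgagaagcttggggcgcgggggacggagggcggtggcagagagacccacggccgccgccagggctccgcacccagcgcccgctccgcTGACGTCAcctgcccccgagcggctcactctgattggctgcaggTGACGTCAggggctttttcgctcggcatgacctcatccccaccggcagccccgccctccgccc
Dusp10: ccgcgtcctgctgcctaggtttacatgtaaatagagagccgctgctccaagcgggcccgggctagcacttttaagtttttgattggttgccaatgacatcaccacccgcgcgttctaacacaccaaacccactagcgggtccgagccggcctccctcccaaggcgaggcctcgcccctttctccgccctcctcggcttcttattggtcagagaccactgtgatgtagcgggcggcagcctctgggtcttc

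Of the 9 members, 8 had a RefSeq promoter, and the 250 bases before its start were searched on both strands for 7 motifs. The full site TGACGTCA, which overlaps the shorter one wherever it occurs, was found once in Dusp1 and at 2 places in Dusp8, against 1.55% of 32851 promoters of the same length. The shorter TGACG was found in Dusp1, Dusp5, Dusp8 and Dusp16 and in 17.8% of all promoters. In Dusp5, 2 CArG boxes lay side by side, and 1.47% of all promoters held at least 1. Dusp1 also held the E-box CACGTG, as did 6.02% of promoters. The AP-1 site TGANTCA, the FoxO site TGTTTAC and the Egr site GCGTGGGCG, with shares of 6.75%, 3.17% and 0.536%, were in no member's window. Dusp6, Dusp7, Dusp10 and Dusp14 held none of the 7 motifs in this window. For Dusp14 only 27 of the 250 bases lie upstream of a GENCODE exon of the gene that reaches into the window. As for Dusp8, the bases that follow the Dusp16 window at the RefSeq start were not found in its GENCODE transcripts. A match is a description of the letters and does not show that a factor binds there.

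Set per length of exon, Dusp14 had the highest level of the family in every group. It ran from 19.5 to 26.5 CPM per kilobase in fasted cKO, 18.6 to 33.4 in fasted WT, 15.8 to 19.4 in fed cKO and 18.7 to 21.7 in fed WT, and its range lay above that of the next member each time. Dusp1, Dusp8 and Dusp10 followed. Their order differed by group, with Dusp10 next in fasted cKO at 7.19 CPM per kilobase, Dusp1 next in fasted WT at 8.32 and in fed cKO at 14.1, and Dusp8 next in fed WT at 5.98. In fed WT, Dusp8 and Dusp1 were at 5.98 and 5.96 CPM per kilobase and overlapped, as did Dusp10, Dusp8 and Dusp1 in fasted cKO, taken as neighbours. Dusp6, Dusp7, Dusp16 and Dusp5 made up the lower range, from 2.63 CPM per kilobase for Dusp6 in fasted WT to 0.0541 for Dusp5 in fed WT. Dusp4 averaged 0.0588 to 0.0914 CPM per kilobase and overlapped with Dusp5 in both fed groups. The summed level of all 9 transcripts was 129 ± 13.2 CPM in fasted cKO, 143 ± 17.9 in fasted WT, 149 ± 5.27 in fed cKO and 111 ± 6.94 in fed WT (SD, n = 5 each). Dusp1 made up 12.7% of that sum in fasted cKO, 19.3% in fasted WT, 31.3% in fed cKO and 17.7% in fed WT.

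**Figure D1:**
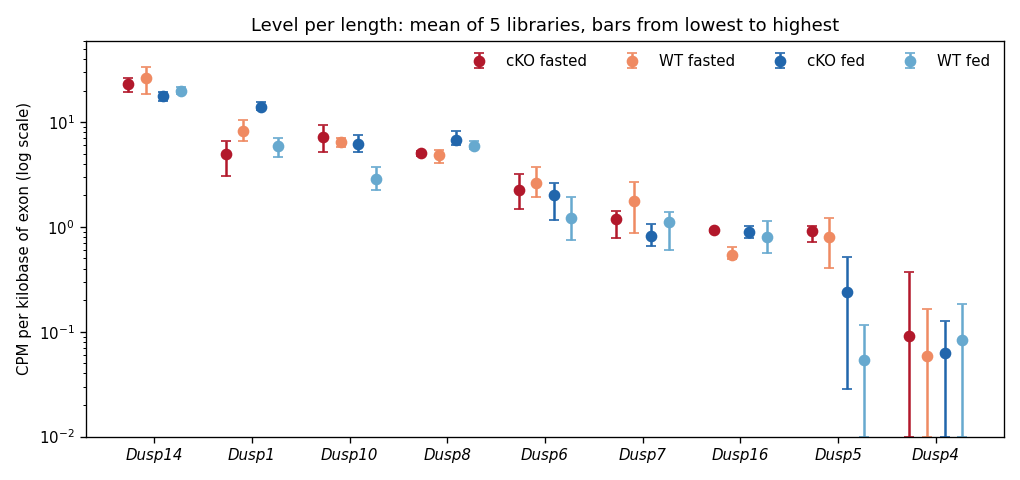
Level of each phosphatase transcript as CPM per kilobase of exon on a log axis, with points for the mean of 5 libraries and bars from the lowest to the highest library; bars that reach the lower edge include a library at 0. Dusp14 lies above all other members in each group, and Dusp5 spreads most between groups, with its fed WT mean at 0.0541 CPM per kilobase.

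Among the nuclear enzymes, Dusp1 was the member whose response to fasting turned with genotype. Dusp1 encodes an early-response phosphatase of p38, JNK and ERK, and lies at chr17:26505590-26562128 in the GENCODE M21 annotation of GRCm38. Its level was 17.9, 10.2, 21.8, 17.9 and 14.9 CPM in fasted cKO and 21.7, 23.5, 34.5, 27.0 and 31.0 CPM in fasted WT. Its level was 51.8, 44.3, 47.3, 43.4 and 46.3 CPM in fed cKO and 23.3, 15.4, 19.3, 21.9 and 18.8 CPM in fed WT. Every fed cKO library stood above every library of the other 3 groups, while fasted WT overlapped with fed WT, and fasted cKO overlapped with fasted WT by 1 library. With fasting, Dusp1 fell in cKO by 1.49 ± 0.15 on the log2 scale (± SE), a 2.81-fold change with an edgeR adjusted p of 1.92e-09. In WT it rose by 0.48 ± 0.14 on the log2 scale with an edgeR adjusted p of 0.00523. Between genotypes, Dusp1 was 1.66-fold lower in fasted cKO than in fasted WT (log2 -0.73 ± 0.15, edgeR adjusted p = 0.00104). It was 2.36-fold higher in fed cKO than in fed WT (log2 1.24 ± 0.14, edgeR adjusted p = 4.18e-07). The fasting response of cKO minus that of WT, the interaction, was -1.97 ± 0.21 on the log2 scale for Dusp1 (edgeR adjusted p = 1.89e-07). The WT rise rested on fasted replicates 3 to 5: with fasted replicates 1 and 2 alone it was 0.18 (edgeR adjusted p = 0.331), and with 3 to 5 alone 0.65 (edgeR adjusted p = 1.63e-05). The other calls for Dusp1 held in both sets.

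Dusp5, the nuclear phosphatase specific for ERK, was nearly absent from fed WT neurons and higher after fasting in both genotypes. It lies at chr19:53529109-53542431, and 22.12% of its exon bases overlap a gene model on the opposite strand, so that without strand its reads cannot be told apart from those of that model. Its counts were 20, 20, 19, 20 and 15 in fasted cKO and 9, 18, 28, 9 and 22 in fasted WT. They were 4, 1, 7, 15 and 11 in fed cKO and 0, 4, 2, 1 and 2 in fed WT. The counts of fasted and fed cKO met at 15, and those of fasted WT lay above those of fed WT. In CPM, which takes account of depth, the fasted libraries lay above the fed ones of their own genotype without overlap, and the genotypes overlapped within each feeding state. Dusp5 averaged 2.26 ± 0.298 in fasted cKO, 1.97 ± 0.899 in fasted WT, 0.59 ± 0.459 in fed cKO and 0.134 ± 0.106 CPM in fed WT (SD, n = 5 each). The fasting change of Dusp5 was 1.93 ± 0.49 on the log2 scale in cKO (edgeR adjusted p = 0.0015) and 3.78 ± 0.60 in WT (edgeR adjusted p = 3.50e-06). Dusp5 passed the filter on low counts only through its fasted libraries. For a gene this low in fed libraries, that filter favoured a rise with fasting. Fed cKO exceeded fed WT by 2.04 ± 0.65 on the log2 scale with an edgeR adjusted p of 0.0423, a call lost without fed WT replicate 1, 3, 4 or 5 or fed cKO replicate 3, 4 or 5, with adjusted p-values of 0.0581 to 0.16 by edgeR. The interaction for Dusp5 was -1.85 ± 0.79 with an edgeR adjusted p of 0.106, and the difference between fasted cKO and fasted WT was 0.19 ± 0.45 (edgeR adjusted p = 0.805).

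Dusp4, a nuclear phosphatase of ERK and JNK, had at most 8 counts in any library and did not pass the filter on low counts. Its level was 0.125, 1.01, 0.116, 0 and 0 CPM in fasted cKO and 0.117, 0.129, 0.108, 0.45 and 0 CPM in fasted WT. Its level was 0.0873, 0.071, 0.35, 0.341 and 0 CPM in fed cKO and 0.345, 0.0718, 0.5, 0.234 and 0 CPM in fed WT. All 4 groups overlapped near the limit of detection, and Dusp4 was not tested. Tests below therefore concern 8 of the 9 members.

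**Figure D2:**
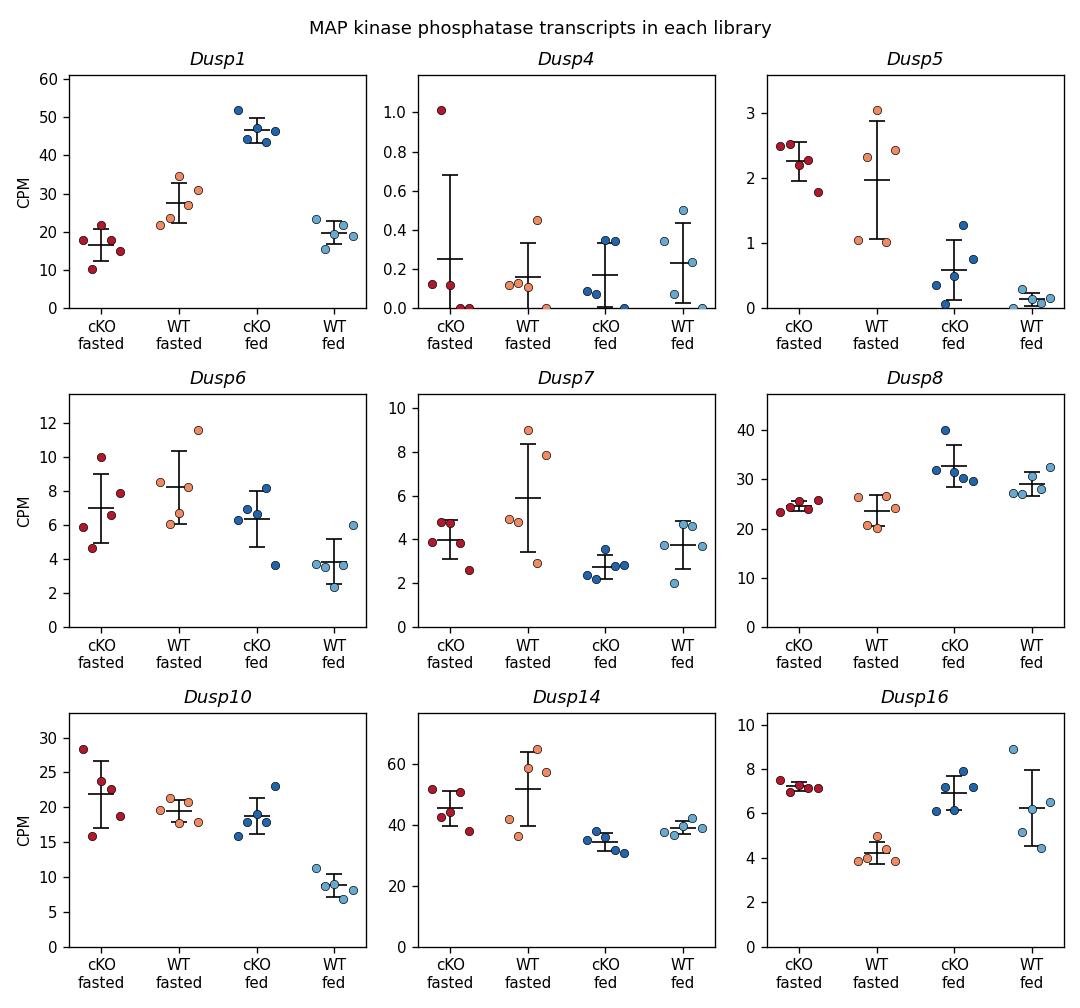
CPM of each of the 9 transcripts in every library, grouped as fasted cKO, fasted WT, fed cKO and fed WT, with points for libraries (replicates 1 to 5 from left to right within a group) and the mean ± SD of 5 libraries. Fed cKO stands apart upward for Dusp1, fed WT stands apart downward for Dusp10, and fasted WT stands apart downward for Dusp16 among fasted libraries.

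Both cytoplasmic ERK phosphatases rose with fasting in WT, though the call for Dusp7 was lost under several alternatives. Neither passed the main edgeR test in cKO, and the interaction passed for neither. Dusp6, which ETS factors are known to induce downstream of ERK, lies at chr10:99263231-99267489. Its level was 5.88, 4.68, 9.97, 6.58 and 7.88 CPM in fasted cKO and 8.53, 6.07, 6.72, 8.22 and 11.6 CPM in fasted WT. Its level was 6.28, 6.95, 6.66, 8.18 and 3.68 CPM in fed cKO and 3.73, 3.52, 2.36, 3.66 and 6.03 CPM in fed WT. Fasted WT lay above fed WT without overlap, and fasted and fed cKO overlapped. With fasting, the change of Dusp6 in cKO was 0.15 ± 0.24 on the log2 scale (edgeR adjusted p = 0.639), while in WT it rose by 1.10 ± 0.25 (edgeR adjusted p = 0.000365). The difference between those responses did not pass, at -0.95 ± 0.35 (edgeR adjusted p = 0.0563). The value for fed cKO against fed WT was 0.72 ± 0.25 and did not pass (edgeR adjusted p = 0.0612), although DESeq2 gave an adjusted p of 0.0438 for it and 0.0452 for the interaction. The edgeR adjusted p for fed cKO against fed WT was 0.0197 with only those 2 groups, 0.0222 with fasted replicates 1 and 2 alone, 0.0194 with fasted replicates 3 to 5 alone, 0.0201 without fed WT replicate 5 and 0.0253 without fed cKO replicate 5. The fits of only those 2 groups or of part of the fasted libraries also called more of all genes in this comparison, as given below. The Dusp6 value in them was 0.71 or 0.72.

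Dusp7, at chr9:106368632-106375724, had 3.98 ± 0.885 CPM in fasted cKO, 5.89 ± 2.47 CPM in fasted WT, 2.76 ± 0.536 CPM in fed cKO and 3.75 ± 1.08 CPM in fed WT (SD, n = 5 each). The libraries of fasted WT ran from 2.93 to 9.0 CPM, the widest range of the 4 groups for Dusp7, and overlapped with those of fed WT. Its fasting change was 0.53 ± 0.28 on the log2 scale in cKO (edgeR adjusted p = 0.121), and in WT it rose by 0.66 ± 0.27 (edgeR adjusted p = 0.037). The interaction for Dusp7 was -0.13 ± 0.39 (edgeR adjusted p = 0.859), so the test did not tell these responses apart. With offsets for GC content and length, chosen after seeing the data, the cKO value passed (0.77, edgeR adjusted p = 0.025). The WT call is lost without fasted WT replicate 3 (0.45, edgeR adjusted p = 0.17) or replicate 5 (0.53, edgeR adjusted p = 0.115), and without fed WT replicate 1, 2 or 5. It is also lost with no filter (edgeR adjusted p = 0.0524) and with only the 2 groups compared (edgeR adjusted p = 0.0606). With fasted replicates 1 and 2 alone it is lost too (0.35, edgeR adjusted p = 0.356).

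Of the JNK and p38 phosphatases, Dusp10 rose with fasting in WT and was already high in fed cKO. It lies at chr1:184013302-184075636. Its level was 28.4, 15.9, 23.8, 22.6 and 18.7 CPM in fasted cKO and 19.6, 21.3, 17.7, 20.8 and 17.9 CPM in fasted WT. Its level was 15.9, 17.9, 19.1, 17.9 and 23.0 CPM in fed cKO and 11.3, 8.76, 8.92, 6.85 and 8.11 CPM in fed WT. All 5 fed WT libraries lay below all 15 others. The fasting value of Dusp10 in cKO was 0.22 ± 0.14 on the log2 scale and did not pass (edgeR adjusted p = 0.19), and in WT it rose by 1.14 ± 0.15 (edgeR adjusted p = 1.57e-07). Fed cKO exceeded fed WT by 1.09 ± 0.15 on the log2 scale (edgeR adjusted p = 5.72e-06), and the interaction was -0.92 ± 0.20 (edgeR adjusted p = 0.00226). Fasted cKO and fasted WT differed by 0.17 ± 0.14 (edgeR adjusted p = 0.44). These calls held under every alternative tried for Dusp10.

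Dusp16, which encodes a phosphatase that acts mainly on JNK, differed between genotypes in fasted neurons. It lies at chr6:134715468-134792625. Its level was 7.5, 6.96, 7.3, 7.15 and 7.16 CPM in fasted cKO and 3.86, 4.0, 4.99, 4.39 and 3.86 CPM in fasted WT. Its level was 6.11, 7.17, 6.17, 7.93 and 7.21 CPM in fed cKO and 8.91, 5.17, 6.21, 4.44 and 6.51 CPM in fed WT. Each fasted cKO library exceeded each fasted WT library, and the fed groups overlapped. Dusp16 was 1.71-fold higher in fasted cKO than in fasted WT (log2 0.77 ± 0.19, edgeR adjusted p = 0.00417). With fasted replicates 1 and 2 alone this call was lost (0.89, edgeR adjusted p = 0.0644). The summed Pomc neuron markers were highest in fasted cKO too, with ranges that overlapped, and their part in this difference was not tested. Its fasting value in cKO was 0.06 ± 0.18 on the log2 scale (edgeR adjusted p = 0.794). In WT it fell by 0.56 ± 0.18 (edgeR adjusted p = 0.0093), a call lost without fed WT replicate 1 (-0.40, edgeR adjusted p = 0.0557) and with fasted replicates 3 to 5 alone (-0.50, edgeR adjusted p = 0.0523). The interaction for Dusp16 was 0.63 ± 0.25 and did not pass (edgeR adjusted p = 0.0889).

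Dusp8, a phosphatase of JNK and p38 that is known for its expression in brain, fell with fasting in both genotypes. It lies at chr7:142079490-142095843. Its level was 23.4, 24.4, 25.7, 23.9 and 25.8 CPM in fasted cKO and 26.5, 20.7, 20.1, 26.7 and 24.1 CPM in fasted WT. Its level was 31.9, 40.1, 31.5, 30.3 and 29.6 CPM in fed cKO and 27.2, 27.1, 30.6, 28.1 and 32.5 CPM in fed WT. The fasted libraries lay below the fed ones of their genotype without overlap. The summed oligodendrocyte markers were also lower in the fasted libraries, and their part in the Dusp8 values was not tested. Dusp8 fell by 0.41 ± 0.10 on the log2 scale in cKO (edgeR adjusted p = 0.00145) and by 0.30 ± 0.10 in WT (edgeR adjusted p = 0.0132). With offsets for the GC content and length of each gene, an alternative chosen after seeing the data, both calls were lost, at -0.08 in cKO (edgeR adjusted p = 0.544) and 0.01 in WT (edgeR adjusted p = 0.928). Fasted cKO against fasted WT gave 0.06 ± 0.11 for Dusp8 (edgeR adjusted p = 0.723), and fed cKO against fed WT gave 0.17 ± 0.10 (edgeR adjusted p = 0.323).

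Dusp14, the most abundant transcript of the family per length, lies at chr11:84048041-84069261. Its level was 51.6, 42.5, 44.0, 50.6 and 38 CPM in fasted cKO and 41.8, 36.2, 58.7, 64.9 and 57.4 CPM in fasted WT. Its level was 35.0, 37.8, 35.9, 31.8 and 30.7 CPM in fed cKO and 37.5, 36.5, 39.7, 42.3 and 39.0 CPM in fed WT. Fasted cKO lay above fed cKO without overlap, and fasted WT replicates 3 to 5 lay above every other library while replicates 1 and 2 lay within or below the range of the fed WT libraries. Dusp14 rose with fasting by 0.40 ± 0.12 on the log2 scale in cKO (edgeR adjusted p = 0.00553) and by 0.41 ± 0.12 in WT (edgeR adjusted p = 0.00358). The interaction was -0.01 ± 0.17 (edgeR adjusted p = 0.982), with a 95% interval from -0.34 to 0.32. With fasted replicates 1 and 2 alone, the WT value was -0.01 (edgeR adjusted p = 0.922) and the interaction 0.47 (edgeR adjusted p = 0.0333), and with replicates 3 to 5 alone fasted cKO against fasted WT gave -0.45 (edgeR adjusted p = 0.00107).

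Counted by comparison, fasting of cKO neurons changed 4 of the 8 tested members, Dusp5 and Dusp14 upward and Dusp1 and Dusp8 downward. The same rule called 53.1% of all 13237 tested genes, 26.0% higher and 27.0% lower, so both shares of members, 2 of 8 each way, were near those of all genes. The members' median log2 fold change was 0.18, against -0.03 over all genes. Fasting of WT neurons changed all 8 tested members, 6 upward (Dusp1, Dusp5, Dusp6, Dusp7, Dusp10 and Dusp14) and 2 downward (Dusp8 and Dusp16), with 60.9% of all genes called, 29.6% higher and 31.3% lower. There the members' median was 0.57 and that of all genes -0.03. Dusp5, counted as a rise in both genotypes, passed the filter only through its fasted libraries, which favoured such a rise. With fasted replicates 1 and 2 alone, the WT calls of Dusp1, Dusp7 and Dusp14 were lost (edgeR adjusted p = 0.331, 0.356 and 0.922). With replicates 3 to 5 alone, that of Dusp16 was lost (edgeR adjusted p = 0.0523).

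In fasted mice 1 member was higher (Dusp16) and 1 lower (Dusp1) in cKO, with 20.3% of all genes called, 11.5% higher and 8.84% lower. The members' median for fasted cKO against fasted WT was -0.07, against -0.01 over all genes. In fed mice, 3 members were higher in cKO (Dusp1, Dusp5 and Dusp10), with 9.68% of all genes called, 5.87% higher and 3.81% lower. No member was lower in fed cKO by edgeR or DESeq2, and 0 were lower at an unadjusted p under 0.05. The median there was 0.44, against 0.01 over all genes. The interaction passed for 2 members, Dusp1 and Dusp10, both negative, and for 17.3% of all genes, 8.87% positive and 8.44% negative. The members' median interaction was -0.52, against -0.03 over all genes. No member had a positive interaction by edgeR or DESeq2, and 1, Dusp16, had one at an unadjusted p under 0.05.

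The comparison of fed cKO with fed WT and the fasting response of WT share the fed WT libraries, so their values are set side by side and no overlap is drawn from them. The log2 fold changes are 1.24 and 0.48 for Dusp1, 2.04 and 3.78 for Dusp5, 0.72 and 1.10 for Dusp6 and 1.09 and 1.14 for Dusp10. For the other tested members the 2 values had opposite signs. They were -0.44 and 0.66 for Dusp7, 0.17 and -0.30 for Dusp8, -0.19 and 0.41 for Dusp14 and 0.14 and -0.56 for Dusp16. In the same 2 comparisons Agt, which carries most of the astrocyte sum, was higher by 2.76 ± 0.25 and 2.78 ± 0.25 on the log2 scale (edgeR adjusted p = 5.10e-09 and 1.81e-10), and its part in the change of the phosphatases was not tested. The 7 other astrocyte genes summed to 4.45 to 7.7 CPM in fed cKO and 5.54 to 13.5 CPM in fed WT. They summed to 5.97 to 23.7 CPM in fasted WT, and their part was not tested either.

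**Figure D3:**
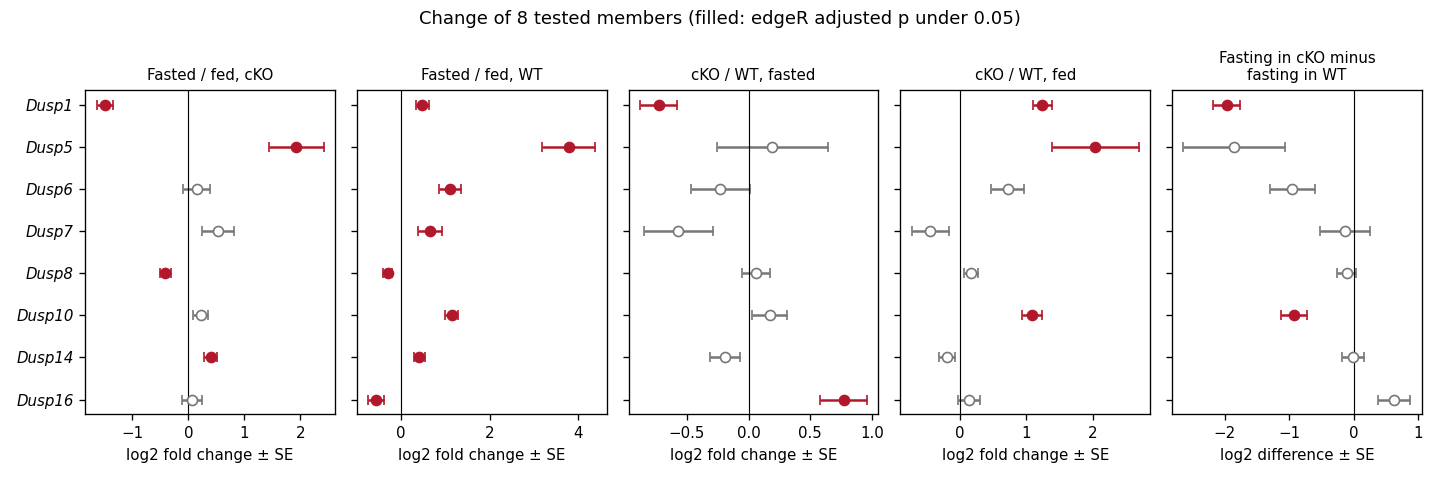
Log2 fold change ± SE of the 8 tested members in each of 5 comparisons, the last panel being the fasting response of cKO minus that of WT, with filled points for an edgeR adjusted p under 0.05 and an axis range of its own in each panel. Dusp1 stands on opposite sides of 0 for fasting in cKO (-1.49) and in WT (0.48), and Dusp5, Dusp8 and Dusp14 stand on the same side in both.

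Of 13 tested transcripts that ERK signalling is known to induce, 8 were higher and 1 lower in fed cKO than in fed WT, where 5.87% of all genes were higher and 3.81% lower. The list's median there was 0.94, against 0.01 over all genes. This list was chosen with earlier results of these data known. With fasting, 2 of the 13 rose and 4 fell in cKO (median 0.14), where 26.0% of all genes rose and 27.0% fell. In WT 10 rose and 3 fell (median 1.46), where 29.6% of all genes rose and 31.3% fell. Fos, the early-response AP-1 gene, averaged 60.9 CPM in fasted cKO, 151 CPM in fasted WT, 120 CPM in fed cKO and 2.91 CPM in fed WT. Its interaction was -6.68 ± 0.18 on the log2 scale (edgeR adjusted p = 3.72e-21). The order of the 4 groups differed for Dusp1, where fed cKO was above fasted WT. Egr1, an early-response zinc finger factor, averaged 45.0 CPM in fasted cKO, 48.0 CPM in fasted WT, 35.9 CPM in fed cKO and 0.805 CPM in fed WT. Epha4, an ephrin receptor gene on the same list, went the other way and fell with fasting by 1.09 ± 0.14 in cKO (edgeR adjusted p = 3.00e-07) and by 2.20 ± 0.15 in WT (edgeR adjusted p = 7.04e-13).

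Other feedback inhibitors of the Ras and ERK pathway showed 5 of 14 tested genes higher and 3 lower with fasting in cKO, against 26.0% and 27.0% of all genes. In WT 8 of the 14 were higher and 2 lower, against 29.6% and 31.3% of all genes. In fed mice 2 of the 14 were higher in cKO, against 5.87% of all genes, and none was lower by edgeR or DESeq2, with 1 at an unadjusted p under 0.05. Spry4, a Sprouty inhibitor of receptor signalling to Ras, averaged 20.1 ± 4.0 CPM in fasted cKO, 14.0 ± 2.85 in fasted WT, 3.21 ± 1.04 in fed cKO and 0.836 ± 0.388 in fed WT (SD, n = 5 each). Its fasting change was 2.65 ± 0.22 on the log2 scale in cKO (edgeR adjusted p = 9.97e-11) and 4.04 ± 0.27 in WT (edgeR adjusted p = 3.04e-13). Errfi1, an inhibitor of the EGF receptor, averaged 102, 91.0, 61.7 and 34.7 CPM in fasted cKO, fasted WT, fed cKO and fed WT. Both were higher in fed cKO than in fed WT, by 1.91 ± 0.29 for Spry4 (edgeR adjusted p = 3.45e-05) and 0.83 ± 0.077 for Errfi1 (edgeR adjusted p = 8.85e-09).

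With fasting, 26.0% of all genes rose and 27.0% fell in cKO, and 29.6% rose and 31.3% fell in WT, which is the background for the kinases and their activators. Of 18 tested genes of the Ras and ERK cascade, 3 rose and 6 fell with fasting in cKO, and 5 rose and 7 fell in WT. Rasgrp1, a calcium-sensitive activator of Ras, fell in WT by 0.84 ± 0.088 (edgeR adjusted p = 3.13e-09). In fed mice 4 of the 18 were lower in cKO, against 3.81% of all genes, among them Sos1, a Ras activator, with a log2 fold change of -0.33 ± 0.081 (edgeR adjusted p = 0.0075). None was higher by edgeR or DESeq2, and 3 were at an unadjusted p under 0.05. Of 26 tested genes of the JNK, p38 and ERK5 cascades, 3 rose and 11 fell with fasting in cKO, and 5 rose and 12 fell in WT. Map2k3, a kinase that activates p38, rose by 0.90 ± 0.14 in cKO (edgeR adjusted p = 4.33e-06) and by 1.5 ± 0.14 in WT (edgeR adjusted p = 3.91e-10). None of the 26 passed in fed cKO against fed WT by edgeR or DESeq2, where 1 was higher and 3 were lower at an unadjusted p under 0.05.

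Among 18 kinases and factors that MAP kinases act on, 2 rose and 6 fell with fasting in cKO, and 3 rose and 6 fell in WT, so that the 6 that fell were near the 27.0% and 31.3% of all genes. Creb1, the factor that binds cyclic AMP response elements, averaged 28.3 CPM in fasted cKO, 16.4 CPM in fasted WT, 24.3 CPM in fed cKO and 36.5 CPM in fed WT. It was higher in fasted cKO than in fasted WT by 0.79 ± 0.14 (edgeR adjusted p = 0.000245) and lower in fed cKO than in fed WT by 0.59 ± 0.13 (edgeR adjusted p = 0.00329). Elk1, a partner of serum response factor at CArG boxes, was lower in fasted than in fed WT by 1.89 ± 0.24 (edgeR adjusted p = 1.42e-07) and lower in fed cKO than in fed WT by 0.68 ± 0.22 (edgeR adjusted p = 0.0458).

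Phosphatases outside these 9 genes were counted in the same way. Of 11 tested other dual-specificity phosphatases and 8 tested other phosphatases of MAP kinases, none passed between fed cKO and fed WT by edgeR or DESeq2, and 0 of the 11 and 1 of the 8 were at an unadjusted p under 0.05. With fasting, the first list had 2 higher and 1 lower in cKO and 2 higher and 5 lower in WT, and the second had 1 higher and 3 lower in cKO and 4 higher and 3 lower in WT, beside 26.0% higher and 27.0% lower in cKO and 29.6% higher and 31.3% lower in WT over all genes. Dusp15, an atypical member, averaged 10.8 CPM in fasted cKO, 12.3 CPM in fasted WT, 6.34 CPM in fed cKO and 6.64 CPM in fed WT, and rose in cKO by 0.76 ± 0.17 (edgeR adjusted p = 0.000293) and in WT by 0.88 ± 0.16 (edgeR adjusted p = 3.42e-05). Ptpn5, the striatal-enriched tyrosine phosphatase of ERK and p38, averaged 17.5 CPM in fasted cKO and 26.2 CPM in fasted WT, a fall of 0.58 ± 0.12 on the log2 scale (edgeR adjusted p = 0.00124).

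**Figure D4:**
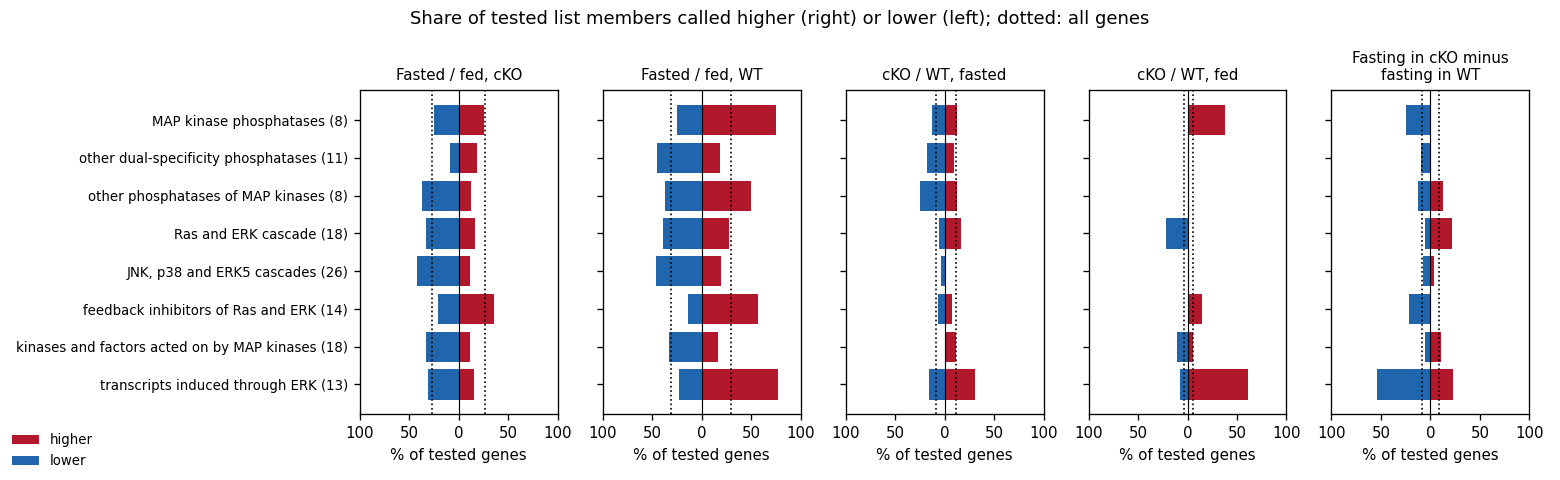
Share of the tested genes of each list called higher (right) or lower (left) at an edgeR adjusted p under 0.05 in each of 5 comparisons, with the number tested in brackets and dotted lines for the share over all genes. The bars of the MAP kinase phosphatases, the feedback inhibitors and the transcripts induced through ERK reach past the dotted line on the higher side for fasting in WT and for fed cKO, where 3 of 8, 2 of 14 and 8 of 13 were called. Dusp5, counted among the phosphatases, passed the filter only through its fasted libraries. The lists were chosen with earlier results of these data known.

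The genes whose profile over the 20 libraries lay nearest to each member were found among 9973 genes by the root mean square difference of centred log2 CPM. For Dusp1, whose own profile has a root mean square of 0.627, they were Abtb1 (0.33), Nudt16 (0.373) and Ppil6 (0.374). Abtb1 averaged 11.6 CPM in fasted cKO, 18.3 CPM in fasted WT, 22.1 CPM in fed cKO and 15.9 CPM in fed WT. For Dusp10 (own 0.554) they were Slc18a1, a vesicular monoamine transporter gene (0.236), Fam107a (0.242) and P2rx4 (0.258). For Dusp5 (own 1.35) they were Btg1 (0.605), Pvr (0.606) and Iqck (0.617). Btg1, an antiproliferative gene, averaged 197 CPM in fasted cKO, 184 CPM in fasted WT, 71.0 CPM in fed cKO and 36.6 CPM in fed WT. For Dusp6 (own 0.545) they were Rgs4 (0.348), Arl4a (0.349) and Tfpi (0.354), and for Dusp7 (own 0.524) Gabrg3 (0.355), Zik1 (0.359) and Zfp398 (0.367). For Dusp8 (own 0.228) they included Sdc2 (0.105) and Nit2 (0.13), for Dusp14 (own 0.286) they were Snrnp40 (0.133), Rnf2 (0.136) and Seh1l (0.138), and for Dusp16 (own 0.353) Asap2 (0.223), Ankrd40 (0.228) and Me1 (0.229). No other member of the family was among the 3 nearest genes of any member. Dusp4, which was not tested, and Dusp5, which lay below that level, could not be among them.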

How the data were processed

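The submitters' processing notes name Trimmomatic 0.36, HISAT2 2.1.0, featureCounts with Subread 1.6.2 and the genome GRCm38. The annotation and strand setting behind the counts were not given in the sources used here, and per the labels' protocols the cDNA was amplified for 15 cycles with kits that do not mark strand. The authors deposited raw read counts and a normalized table, which was not used. Tests of the counts used edgeR 4.0.16 (R 4.3.3): TMM normalization, a filter (minimum count 10, minimum total 15) that left 13237 genes, a model of 4 group means over 20 libraries, the quasi-likelihood test, and Benjamini-Hochberg adjustment over all genes of a comparison with a threshold of 0.05. The labels do not say which libraries came from separate mice, so p-values measure the spread between these samples. The SE is the log2 fold change divided by the root of F, and 95% intervals are 1.96 SE either way. The steps were tested on simulated counts. The limits given for a count of 0 cover counting error only, since amplified reads are not independent molecules.

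The members, gene lists and cell type markers were chosen with earlier results of these data known. Besides all members, pathway genes were named from the 3 smallest passing p-values of each list and comparison, as a subset picked with values in view, and the 3 nearest profiles of each member. Some genes that these rules select are not reported here. Coordinates and lengths are from GENCODE M21, which matched 95.4% of names. Alternatives were DESeq2 1.42.0, upper-quartile normalization, other filters, a block for replicate number, fits of the 2 groups compared, parts of the fasted libraries, each library left out, and GC and length offsets.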

Additional observations from a re-analysis of the deposited data

Results flagged for a closer look

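In 3 of the 83 groups of 5 libraries that were looked at, 1 library lay far from the other 4 by Dixon's test with a critical value of 0.71, and chance alone gives about 1 in 20. The highest fed cKO library for Dusp8 had 40.1 CPM. The lowest fasted cKO library for Ptpn5 had 11.5 CPM. The highest fed cKO library for Egr1 had 48.6 CPM.

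The fasting response differed between genotypes by the interaction test of edgeR for the genes that follow and for others named above, Agt (-2.18) and Epha4 (1.11) among them. Each value is the response of cKO minus that of WT on the log2 scale. Among the members these were Dusp1 with -1.97 (adjusted p = 1.89e-07) and Dusp10 with -0.92 (adjusted p = 0.00226). The negative values outside the family were -6.68 for Fos, -5.59 for Egr1, -1.39 for Spry4, -0.72 for Ptpn5, -0.67 for Errfi1 and -0.60 for Map2k3. The positive values were 1.38 for Creb1, 0.98 for Elk1, 0.90 for Phf6, 0.56 for Rasgrp1 and 0.48 for Sos1.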

How the results depend on the processing

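All calls for Dusp10, and those for Dusp1 other than the WT fasting rise, kept their side of the threshold under every alternative. Counts are given higher and lower. With fits of only the 2 groups compared, 1518 and 1434 genes were called in fed cKO against fed WT (777 and 504 in the fit of all groups), and 731 and 621 in fasted cKO against fasted WT (1517 and 1170). With fasted replicates 1 and 2 only, fed cKO against fed WT had 1401 and 1183, fasted cKO against fasted WT had 668 lower, and members called were 3 higher for fasting in WT, 0 higher in fasted cKO and 1 positive for the interaction. There the sign turned for Dusp14 in WT fasting (-0.01), fasted cKO against WT (0.28) and the interaction (0.47), for Dusp6 in cKO fasting (-0.26) and for Dusp7 in the interaction (0.30). With replicates 3 to 5 only, the counts were 1370 and 1150 for fed cKO and 1810 and 1793 for the interaction, 1 member was lower for fasting in WT, 2 were lower in fasted cKO, and Dusp5 turned in fasted cKO (-0.06). With GC and length offsets 1 member was lower for fasting in each genotype, Dusp8 turned in WT fasting (0.01) and Dusp14 in the interaction (0.04). The cause of these shifts was not tested.

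Leaving out each library in turn gave 1 to 2 members lower for WT fasting, 1 to 2 lower in fasted cKO, 0 to 1 positive for the interaction, and 332 to 621 genes lower in fed cKO. The value without fed cKO replicate 2 was 332. Dusp6 in cKO fasting ran from -0.02 to 0.26, and the interaction from -0.11 to 0.09 for Dusp14 and from -0.30 to 0.08 for Dusp7. The Dusp6 interaction passed without fed WT replicate 5 (adjusted p = 0.0197), fed cKO replicate 5 (0.0246), fasted WT replicate 2 (0.0344) or fasted cKO replicate 3 (0.0284) by edgeR. The Dusp5 call in fed cKO was also lost with no filter (edgeR adjusted p = 0.0504).

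The labels do not say that replicate numbers pair the samples. Same-numbered libraries of the fasted groups correlated by 0.0221 to 0.131 in their deviations from the group means. The highest values with another number were 0.025 to 0.126, which cannot decide whether samples were paired. With a replicate block, 2 members were higher in fed cKO in place of 3, with 806 genes higher and 512 lower, and for fasting in WT 6 were higher and 2 lower as without it. Over the alternatives, the count of transcripts induced through ERK ran from 6 to 9 higher in fed cKO and from 9 to 11 higher for WT fasting, and the Ras and ERK cascade from 1 to 5 lower in fed cKO. Of 2156 such list counts 238 moved by over 1.5 times. Depth limits Dusp4 and Dusp5, whose counts were at most 8 and 28 per library.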
